A study of Mus musculus with 20 samples.

Results

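Interferon-stimulated genes were followed through the response of mouse flank tissue to Ad-VEGF-A164, as a list of 34 genes, 31 of which were among the 18193 genes that the arrays measured with a probe set of 1 gene symbol. The list held 24 type I antiviral genes, 4 transcription factors of the interferon response and 6 GTPases known from the response to interferon-gamma. For each gene the probe set of highest mean signal over 19 arrays was used. Of the other 3 members Oas1g and Ifi44 had no probe set of their own, and Isg15 had only a probe set shared with Gm9706. Mx2 and Stat2 had mean signals under 300, the lowest mean that entered the test, so that 29 members were tested among 13594 genes: 20 type I antiviral genes, 3 transcription factors and 6 GTPases. Oas3 entered through its higher signals after the vector, since its mean on the control arrays was 239.

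Interferons are secreted proteins that act through paired receptors on nearby cells. Type I interferons, made when a cell senses viral nucleic acid, activate a complex that includes STAT2 and IRF9, which binds the interferon-stimulated response element (ISRE) of antiviral genes. Interferon-gamma, made by T cells and natural killer cells, acts through the gamma-activated site (GAS), and its targets include guanylate-binding proteins and immunity-related GTPases, which attack the vacuoles of intracellular microbes. Many genes respond to both kinds of interferon, and macrophages and endothelial cells are strong responders.

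The series holds 5 arrays of flank tissue labelled control at day 0, and arrays of tissue harvested on day 5, day 20 and day 60 of the Ad-VEGF-A164 flank model, in which an adenovirus carries the VEGF-A164 isoform of vascular endothelial growth factor. Day 5 has 4 arrays, B to E, and day 20 and day 60 have 5 each, A to E. A twentieth array is titled day 5 A but has a source name of control, so it stood in no group. The labels name no strain, sex, age or genotype and no array of an empty vector, so that effects of the vector, of the injection, of time and of VEGF-A164 cannot be told apart. No label says that arrays came from separate mice, and p-values therefore cover only the array-to-array spread, in part perhaps technical. Vegfa signals ranged from 66.5 to 467 on the control arrays, 3927 to 9410 on day 5, 7128 to 13514 on day 20 and 219 to 1076 on day 60.

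The stretches upstream of 9 members are shown because they carry the letters of the elements named above in both classes of gene. They come from RefSeq promoter windows of GRCm38.p6, each 250 bases before an annotated start, cut here to 80 bases; 26 of the 34 members matched, and capitals mark the motifs. The ISRE core was searched as GAAANNGAAA and the GAS as TTCNNNGAA on both strands, so that a core on the other strand reads as its reverse complement. The antiviral windows lie at chr19:34640759-34640838 on the plus strand (Ifit1), chr12:26456528-26456607 on the minus strand (Rsad2), chr8:71537558-71537637 on the minus strand (Bst2) and chr5:120777690-120777769 on the minus strand (Oas3). Those of the GTPases lie at chr3:142620569-142620648 on the plus strand (Gbp2), chr3:142559936-142560015 on the plus strand (Gbp3), chr11:58199476-58199555 on the plus strand (Igtp) and chr11:48871421-48871500 on the minus strand (Irgm1), and that of the transcription factor Irf1 at chr11:53769888-53769967 on the plus strand.
Ifit1: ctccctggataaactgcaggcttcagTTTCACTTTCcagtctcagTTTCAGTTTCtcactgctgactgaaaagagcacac
Rsad2: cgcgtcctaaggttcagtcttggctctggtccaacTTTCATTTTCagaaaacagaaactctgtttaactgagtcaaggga
Bst2: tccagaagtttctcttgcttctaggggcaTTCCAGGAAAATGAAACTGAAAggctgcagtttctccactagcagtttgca
Oas3: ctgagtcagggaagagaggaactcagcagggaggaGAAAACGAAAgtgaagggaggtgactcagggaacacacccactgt
Gbp2: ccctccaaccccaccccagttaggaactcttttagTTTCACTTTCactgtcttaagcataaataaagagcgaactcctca
Gbp3: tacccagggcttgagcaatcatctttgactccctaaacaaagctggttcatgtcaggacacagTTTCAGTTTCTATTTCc
Igtp: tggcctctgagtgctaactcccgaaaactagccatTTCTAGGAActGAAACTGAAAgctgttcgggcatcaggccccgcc
Irgm1: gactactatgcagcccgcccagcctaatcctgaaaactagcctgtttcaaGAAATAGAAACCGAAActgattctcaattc
Irf1: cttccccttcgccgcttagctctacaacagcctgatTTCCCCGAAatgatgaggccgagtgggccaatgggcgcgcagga

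The ISRE core stood in the windows of 14 of 26 members (53.8%), against 936 of 27025 genes of the whole table (3.46%). It was in 9 of 17 antiviral genes, 4 of 5 GTPases and, of the 4 transcription factors, in Stat2. The GAS letters were in 5 of 26 members (19.2%), against 8.13% of all genes: Bst2, Ifit2, Oas1a, Igtp and Irf1. Bst2 and Igtp held both motifs within the printed stretch, and in Bst2 the GAS overlaps the first of 2 ISRE cores, which overlap each other; the core pairs of Gbp3 and Irgm1 overlap as well. Cmpk2, Ifi35, Ifi44, Ifi47, Ifih1, Irf7, Irf9, Oasl1, Oasl2 and Xaf1 had a window and neither set of letters in it. A match describes letters only, and no factor's binding was measured here.

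**Figure D1:**
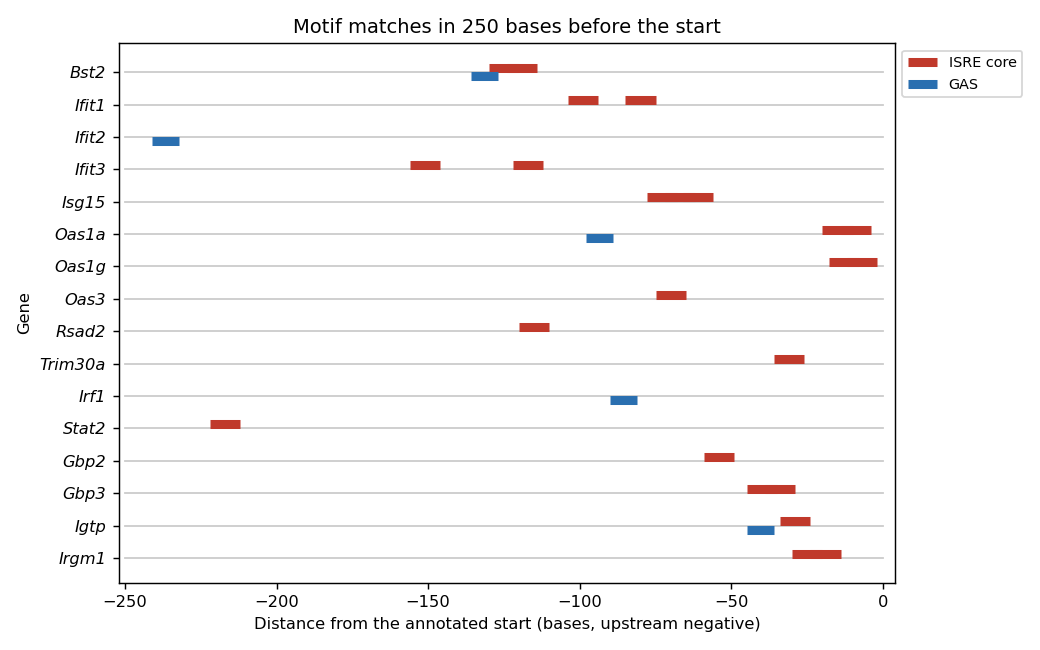
Matches to the ISRE core (red) and the GAS (blue) in the 250 bases before the annotated start of each member with at least 1 match, by distance from the start in bases. The matches of 4 GTPases (Gbp2, Gbp3, Igtp and Irgm1) lie within 60 bases of the start, while those of the antiviral genes start from 12 to 241 bases upstream.

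Array medians of the deposited MAS5 signal ran from 406 to 569 over all 19 arrays. Markers of muscle, fat, epidermis and fibroblasts were present in each group, as the label flank tissue implies. The 3' to 5' signal ratio of Actb, a measure of RNA integrity and labelling, was 4.15 to 9.12 in control (mean 7.10). It was 2.95 to 7.31 on day 5 (mean 4.82) and 2.60 to 7.56 on day 20 (mean 4.48). On day 60 it was 4.32 to 14.0 (mean 8.82), and arrays A, B and D were above 10. Changes are differences of log2(signal + 100); the added 100 shrinks the fold of dim genes, and a call is an adjusted p under 0.05 from limma over all 13594 genes.

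On day 5, 22 of the 29 tested members rose against control and none fell, with a median log2 change of 0.82 against -0.07 over all genes tested. Over all genes tested, 16.8% were called higher and 17.5% lower. By class, 14 of 20 antiviral genes rose (median 0.94), 2 of 3 transcription factors (median 0.70) and 6 of 6 GTPases (median 1.20). Every day 5 array was above every control array for 19 of the 29 members, where 14.5% of all genes had such a gap upward. On day 20, 9 members rose and none fell, with a median of 0.32 against -0.06 over all genes: 4 of 20 antiviral genes (median 0.25), 1 of 3 transcription factors and 4 of 6 GTPases (median 0.79). Of all genes 15.6% were called higher and 14.5% lower on day 20. For 8 members all day 20 arrays were above all control arrays, with 12.0% as the share over all genes. On day 60 no member was called by limma, where 1.13% of all genes were called in either direction. At an unadjusted p under 0.05, 1 of the 29 members (Rsad2) differed from control on day 60, against 15.9% of all genes. The 3 comparisons use the same 5 control arrays and are not independent of each other. At an unadjusted p under 0.05 no member was lower on day 5 or on day 20.

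**Figure D2:**
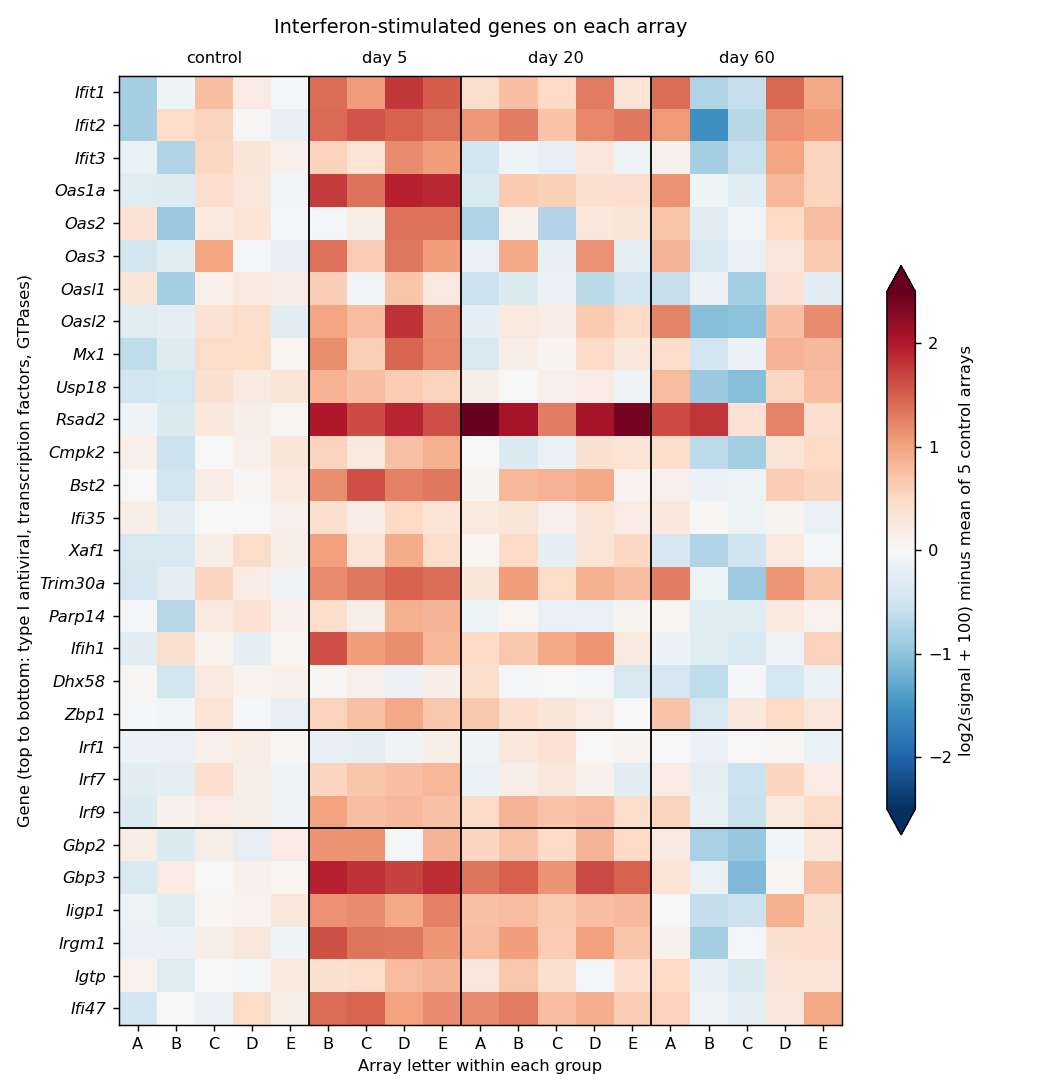
Log2(signal + 100) of the 29 tested members on 19 arrays, minus the mean of the 5 control arrays for the same gene; red is above and blue below the control mean, and lines separate groups and classes. Red is broadest on day 5, where 22 members were called higher. On day 20 the largest changes were those of Rsad2 (2.14), Gbp3 (1.42), Ifit2 (1.12) and Ifi47 (0.96). Day 60 arrays B and C are mostly blue.

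**Figure D3:**
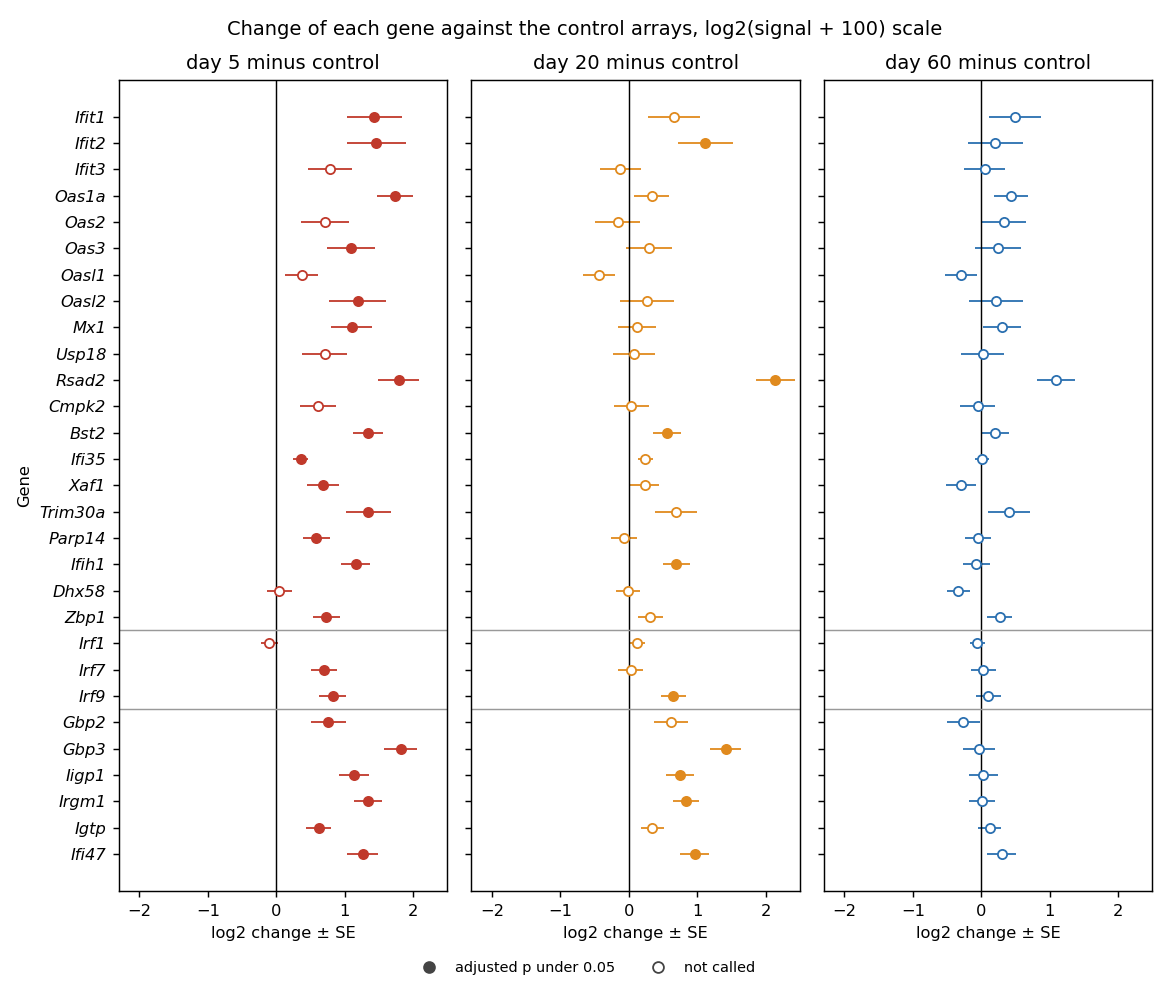
Log2 change of each member against the control arrays with its standard error (limma), by day; filled points have an adjusted p under 0.05. The lines separate antiviral genes, transcription factors and GTPases, and filled points number 22 on day 5, 9 on day 20 and 0 on day 60.

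The IFIT genes encode proteins that bind viral RNA lacking the marks of host messages. Ifit1 gave signals of 992, 1695, 3177, 2148 and 1815 on control arrays A to E and of 5029.8, 3937, 6501 and 5422 on day 5 arrays B to E. Ifit1 signals were 2524, 3161, 2657, 4705 and 2345 on day 20 arrays A to E and 4982, 1055, 1208, 5155 and 3651 on day 60 arrays A to E. All day 5 arrays were above all control arrays, with a change of 1.43 ± 0.41 (SE, adjusted p = 0.0103), or 2.7-fold. Day 20 overlapped the controls (0.67 ± 0.38 (SE, adjusted p = 0.201)), and on day 60 arrays A, D and E were above every control array while B and C were not. Ifit2 gave signals of 552, 1500.4, 1614, 1094 and 910.4 on control arrays A to E and of 3026, 3387, 3158 and 2910.0 on day 5 arrays B to E. Ifit2 signals were 2378, 2722, 1819, 2570.2 and 2803 on day 20 arrays A to E and 2330.5, 305, 619.8, 2467 and 2309 on day 60 arrays A to E. Both day 5 and day 20 lay wholly above control, by 1.46 ± 0.43 (SE, adjusted p = 0.013) and 1.12 ± 0.41 (SE, adjusted p = 0.0435). The day 20 call of Ifit2 was lost in 11 of 19 fits that left out 1 array (control A, D or E, any day 5 array, or day 20 A, B, D or E), with adjusted p from 0.00445 to 0.122 over all alternatives. Ifit3, whose signal was 1539 ± 504 (SD, n = 5) in control and 2677 ± 733 (SD, n = 4) on day 5, changed by 0.78 ± 0.32 (SE, adjusted p = 0.062) and was not called. Ifit3 was called on day 5 when control C, day 5 C, day 60 B or day 60 D was left out.

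The OAS genes encode synthetases of short oligoadenylates that switch on an RNA-cutting enzyme, and Oasl1 and Oasl2 are relatives of that family. Oas1a gave signals of 1619, 1604, 2766, 2491 and 1930.2 on control arrays A to E and of 7101, 5364, 8058 and 7791 on day 5 arrays B to E. Oas1a signals were 1539.7, 3248, 3131, 2675 and 2761 on day 20 arrays A to E and 4568, 1890.2, 1681, 3679.8 and 3043 on day 60 arrays A to E. The lowest day 5 array of Oas1a (C) was well above the highest control array (C), and the change was 1.73 ± 0.27 (SE, adjusted p = 6.51e-05), or 3.33-fold. On day 20 Oas1a overlapped the control values (0.33 ± 0.25 (SE, adjusted p = 0.338)). Oas1a was called in all 34 alternatives on day 5, with adjusted p from 1.51e-05 to 0.00376. Oas1g, its close copy, had no probe set of its own, and signal from the one cannot be separated here from the other. Oas3 gave signals of 130.4, 155, 526, 208 and 174 on control arrays A to E and of 710.2, 391, 687 and 553 on day 5 arrays B to E. Oas3 signals were 176, 509, 175, 595 and 165 on day 20 arrays A to E and 468, 141, 175, 282 and 397 on day 60 arrays A to E. Control array C of Oas3 was above day 5 array C, so the groups overlapped; the change was 1.09 ± 0.35 (SE, adjusted p = 0.0224), lost without control A, day 5 B or day 5 D.

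Oasl2 rose by 1.19 ± 0.42 (SE, adjusted p = 0.0328) on day 5, from 687 ± 209.7 (SD, n = 5) to 1711 ± 606 (SD, n = 4), with all day 5 arrays above control. That call was lost without control A, B or E, or day 5 B, D or E, over an adjusted p range of 0.00260 to 0.106. Oas2 changed by 0.71 ± 0.35 (SE, adjusted p = 0.123) and Oasl1 by 0.37 ± 0.25 (SE, adjusted p = 0.265) on day 5, neither called. On day 20 none of the 5 tested OAS genes was called by limma, with changes from -0.44 (Oasl1) to 0.33 (Oas1a) and no unadjusted p under 0.05 among the 5. Oasl1 was called lower on day 20 when control array B was left out, whose signal of 537 was the lowest of that group.

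Mx1 encodes a dynamin-like GTPase that blocks influenza and related viruses. Mx1 gave signals of 173, 239.7, 485, 482 and 340.0 on control arrays A to E and of 854, 539, 1059.5 and 877 on day 5 arrays B to E. Mx1 signals were 223, 378, 345, 491 and 409 on day 20 arrays A to E and 474, 205, 287, 678 and 646 on day 60 arrays A to E. The 4 day 5 arrays were above the 5 controls, with a change of 1.10 ± 0.29 (SE, adjusted p = 0.00705); day 20 (0.11 ± 0.28 (SE, adjusted p = 0.788)) and day 60 (0.30 ± 0.28 (SE, adjusted p = 0.62)) overlapped them. Mx2 was near the bottom of the range, from 47.4 to 210 over the 19 arrays, and changed by 0.23 ± 0.17 (SE, adjusted p = 0.376) on day 5 in a fit without the minimum signal. Usp18 removes ISG15 from proteins and damps the type I receptor. Usp18 gave signals of 685, 704, 1307, 1179 and 1239 on control arrays A to E and of 1891, 1721, 1597 and 1510.0 on day 5 arrays B to E. Usp18 signals were 1123, 991, 1091, 1149 and 912 on day 20 arrays A to E and 1781, 469.8, 423, 1447 and 1767 on day 60 arrays A to E. All day 5 arrays of Usp18 were above all controls, yet the change of 0.71 ± 0.33 (SE, adjusted p = 0.104) was not called in the fit of all groups, where day 60 values ran from 423 to 1781; a fit of only control and day 5 called it.

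Rsad2 encodes viperin, a radical SAM enzyme that makes a chain-terminating nucleotide, and it had the largest change of any member on day 20. Rsad2 gave signals of 3620.3, 3069, 4728, 4305 and 3965 on control arrays A to E and of 15954, 12236, 14818 and 12123 on day 5 arrays B to E. Rsad2 signals were 30072, 16558, 9634, 16676 and 20763 on day 20 arrays A to E and 12302, 13758, 5007, 9352 and 5228 on day 60 arrays A to E. All arrays of each later day were above all control arrays, by 1.79 ± 0.30 (SE, adjusted p = 0.000142) on day 5, 2.14 ± 0.28 (SE, adjusted p = 1.20e-05) on day 20 and 1.09 ± 0.28 (SE, adjusted p = 0.0646) on day 60. These are 3.45-fold, 4.42-fold and 2.12-fold, and the day 60 change was not called. Rsad2 was the one member with all day 60 arrays above all control arrays, against 1.23% of all genes. The day 60 change was called without day 20 C or without day 60 C, over an adjusted p range of 0.0329 to 0.726. Day 20 arrays differed among themselves, with A the highest at 30072 and C the lowest at 9634 and the change from day 5 was not called (0.36 ± 0.30 (SE, adjusted p = 0.554)). Its other probe sets changed by 2.01 ± 0.35 (SE, adjusted p = 0.000251) and 0.75 ± 0.32 (SE, adjusted p = 0.0775) on day 5, and by 2.24 ± 0.33 (SE, adjusted p = 5.13e-05) and 1.19 ± 0.30 (SE, adjusted p = 0.00579) on day 20. Cmpk2, the neighbour of Rsad2, encodes a mitochondrial nucleotide kinase; it changed by 0.61 ± 0.27 (SE, adjusted p = 0.0864) on day 5 and 0.04 ± 0.25 (SE, adjusted p = 0.928) on day 20 and was called on neither day; leaving out day 60 C brought a day 5 call.

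Bst2 encodes tetherin, which holds budding virus at the cell surface. Bst2 gave signals of 528, 354, 609, 535 and 638 on control arrays A to E and of 1294, 1797, 1401 and 1452 on day 5 arrays B to E. Bst2 signals were 556, 1002, 1037, 1107 and 565 on day 20 arrays A to E and 579.5, 460.3, 474, 859 and 801 on day 60 arrays A to E. Day 5 lay wholly above control, at 2.52-fold (1.34 ± 0.22 (SE, adjusted p = 0.000131)). On day 20 arrays B, C and D were above every control array while A and E were among the controls, and the change of 0.56 ± 0.21 (SE, adjusted p = 0.0484) was only just called. That call was lost in 12 of 19 fits without 1 array (control A, B, C or D, any day 5 array, day 20 B, C or D, or day 60 A), with adjusted p from 0.0174 to 0.334 over all alternatives. Trim30a gave signals of 1362, 1553, 2734, 2098 and 1738 on control arrays A to E and of 4304, 4761, 5324 and 5029 on day 5 arrays B to E. Trim30a signals were 2299.9, 3926, 2581, 3508 and 3168 on day 20 arrays A to E and 4639, 1682, 939.9, 4071 and 3025 on day 60 arrays A to E. Trim30a, a member of a family that restrains inflammatory signalling, rose by 1.35 ± 0.33 (SE, adjusted p = 0.00365) with no overlap; on day 20 it changed by 0.69 ± 0.31 (SE, adjusted p = 0.0977), called only when day 60 C was left out among the fits without 1 array. Its other probe set averaged 1812 ± 676 (SD, n = 5) in control and 3580.2 ± 635 (SD, n = 4) on day 5 (adjusted p = 0.000757).

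Ifi35, Xaf1 and Parp14 rose less on day 5. Ifi35 gave signals of 9634, 7351, 8652, 8646 and 9517 on control arrays A to E and of 11577, 9998, 12292 and 11061 on day 5 arrays B to E. Ifi35 signals were 10298, 10782, 9576, 11063 and 10074 on day 20 arrays A to E and 10443, 8898, 8038, 9130.4 and 7790.1 on day 60 arrays A to E. Ifi35, which encodes an interferon-induced leucine zipper protein, rose by 0.36 ± 0.11 (SE, adjusted p = 0.0179), and every day 5 array was above control; the call was lost without day 5 D. Its probe set carries the suffix that Affymetrix uses for probes shared between transcripts, and the other sets changed by 0.51 ± 0.13 (SE, adjusted p = 0.00571) and 1.49 ± 0.35 (SE, adjusted p = 0.00325). Xaf1 gave signals of 1380.2, 1394, 2091, 2600.3 and 2099.9 on control arrays A to E and of 3891, 2364, 3612 and 2553 on day 5 arrays B to E. Xaf1 signals were 1921, 2619.9, 1568, 2385 and 2705 on day 20 arrays A to E and 1364, 1058, 1281, 2219.6 and 1807 on day 60 arrays A to E. Day 5 array C and E of Xaf1, a gene that promotes apoptosis, lay below control D, and its change of 0.68 ± 0.23 (SE, adjusted p = 0.0277) was lost without control A or B or day 5 B or D; a dimmer probe set changed by -0.01 ± 0.22 (SE, adjusted p = 0.985). Parp14 gave signals of 1325, 803, 1607, 1779 and 1474 on control arrays A to E and of 1859, 1532, 2593 and 2528 on day 5 arrays B to E. Parp14 signals were 1251, 1409.5, 1185, 1185 and 1416 on day 20 arrays A to E and 1395, 1077, 1076, 1616 and 1454 on day 60 arrays A to E. Parp14 encodes a mono-ADP-ribosyltransferase, and its day 5 values overlapped control (0.58 ± 0.20 (SE, adjusted p = 0.0265)); the call was lost without control B, day 5 D or day 5 E, and its second probe set changed by 0.11 ± 0.39 (SE, adjusted p = 0.856). None of these 3 genes was called on day 20 or day 60.

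Among the sensors of nucleic acid, Ifih1 encodes MDA5, which detects long double-stranded RNA. Ifih1 gave signals of 2495, 4074, 3271, 2554 and 3156 on control arrays A to E and of 9566, 6402, 6995 and 5503 on day 5 arrays B to E. Ifih1 signals were 4393, 4954, 6053, 6703 and 3615 on day 20 arrays A to E and 2754, 2479.8, 2328, 2838 and 4614 on day 60 arrays A to E. All day 5 arrays of Ifih1 exceeded the highest control (B), a change of 1.16 ± 0.21 (SE, adjusted p = 0.000363), and on day 20 all but E did (0.70 ± 0.20 (SE, adjusted p = 0.0137)). Zbp1 encodes a sensor of Z-form nucleic acid that can start necroptosis. Zbp1 gave signals of 383, 369, 523, 372 and 326 on control arrays A to E and of 635, 711, 850.1 and 679.7 on day 5 arrays B to E. Zbp1 signals were 678, 556, 508, 460.5 and 390.0 on day 20 arrays A to E and 702, 274, 489, 585 and 494 on day 60 arrays A to E. Zbp1 rose on day 5 with no overlap (0.73 ± 0.20 (SE, adjusted p = 0.00735)) and was not called on day 20 (0.32 ± 0.19 (SE, adjusted p = 0.21)); its second probe set changed by 1.45 ± 0.50 (SE, adjusted p = 0.0327) and 0.05 ± 0.47 (SE, adjusted p = 0.953). Dhx58, the gene of LGP2, was not called on its brightest probe set (0.04 ± 0.18 (SE, adjusted p = 0.885) on day 5). A second Dhx58 probe set, with a mean of 171 and so below the test's minimum, averaged 74.1 ± 44.0 (SD, n = 5) in control and 432 ± 192 (SD, n = 4) on day 5, so its probe sets disagree.

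Of the transcription factors Irf7 and Irf9 rose on day 5, and Irf1 was not called. IRF7 is induced by interferon and drives interferon-alpha genes, IRF9 is the DNA-binding part of the complex it forms with STAT2, and IRF1 is a classic target of interferon-gamma. Irf7 gave signals of 881, 909.8, 1483, 1211 and 1008 on control arrays A to E and of 1600.4, 1800.5, 1884 and 1989 on day 5 arrays B to E. Irf7 signals were 957, 1226, 1343, 1167 and 880.4 on day 20 arrays A to E and 1251, 900.4, 712, 1607 and 1253 on day 60 arrays A to E. Irf7 was above control on each day 5 array (0.70 ± 0.19 (SE, adjusted p = 0.00919)) and overlapped control on day 20 (0.03 ± 0.18 (SE, adjusted p = 0.923)). Irf9 gave signals of 1259, 1749, 1895, 1798 and 1498 on control arrays A to E and of 3354, 2789, 2927 and 2761 on day 5 arrays B to E. Irf9 signals were 2294, 3001, 2722, 2842 and 2233 on day 20 arrays A to E and 2439, 1394, 1065, 1941 and 2315 on day 60 arrays A to E. Irf9 was above control on each day 5 and each day 20 array, by 0.82 ± 0.19 (SE, adjusted p = 0.00271) and 0.65 ± 0.18 (SE, adjusted p = 0.0109). Irf1 gave signals of 3207, 3148, 3875, 4034 and 3617 on control arrays A to E and of 3074, 2969, 3364 and 3925 on day 5 arrays B to E. Irf1 signals were 3347, 4335, 4627, 3557 and 3759 on day 20 arrays A to E and 3575, 3195, 3541, 3649 and 3172 on day 60 arrays A to E. Irf1 overlapped control on every day, with changes of -0.10 ± 0.12, 0.13 ± 0.12 and -0.06 ± 0.12, and was not called.

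Stat2 gave signals of 122, 60.3, 86.8, 222 and 104 on control arrays A to E and of 315, 589, 542 and 547 on day 5 arrays B to E. Stat2 signals were 252, 383, 302, 248 and 352 on day 20 arrays A to E and 160.4, 137, 14.5, 56.2 and 383 on day 60 arrays A to E. Stat2, below the test's minimum signal, was above all controls on each day 5 and each day 20 array. In a fit without the minimum it changed by 1.46 ± 0.31 (SE, adjusted p = 0.00163) on day 5 and 0.92 ± 0.29 (SE, adjusted p = 0.0282) on day 20, over 18193 genes. Its second probe set averaged 168.9 ± 65.1 (SD, n = 5) in control and 270.2 ± 30.4 (SD, n = 4) on day 5.

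The GTPases fall into guanylate-binding proteins (Gbp2, Gbp3) and immunity-related GTPases (Iigp1, Irgm1, Igtp, Ifi47). Gbp3 gave signals of 1593, 2429, 2104, 2272 and 2178 on control arrays A to E and of 8214, 7609, 6996 and 7742 on day 5 arrays B to E. Gbp3 signals were 5476, 6060.4, 4672, 6765 and 6028 on day 20 arrays A to E and 2667, 1861, 923, 2166 and 3542 on day 60 arrays A to E. Gbp3 had the largest day 5 change of any member, 3.52-fold (1.82 ± 0.24 (SE, adjusted p = 1.52e-05)), and was 2.67-fold above control on day 20 (1.42 ± 0.23 (SE, adjusted p = 0.00012)). Each day 5 and day 20 array was above every control, and on day 60 arrays A and E were above and C below the control range. Gbp2 gave signals of 3731, 2587, 3663, 2853 and 3821 on control arrays A to E and of 7310.0, 7312, 3164 and 5993 on day 5 arrays B to E. Gbp2 signals were 4824, 5477, 4681, 5984 and 4701 on day 20 arrays A to E and 3883, 1843, 1667, 3154 and 3974 on day 60 arrays A to E. Day 5 array D of Gbp2 fell inside the control range while B, C and E were well above it, so that day 5 overlapped (0.76 ± 0.26 (SE, adjusted p = 0.0285)) and day 20 did not (0.62 ± 0.24 (SE, adjusted p = 0.0618), not called). The day 5 call was lost without control B or D or day 5 B, C or E, and the day 20 change was called without day 5 D, day 60 B or day 60 C. The second Gbp2 probe set, which lacks the suffix for probes that match other sequences in part, changed by 1.27 ± 0.28 (SE, adjusted p = 0.0017) on day 5 and 0.88 ± 0.26 (SE, adjusted p = 0.0165) on day 20.

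Iigp1 gave signals of 5941, 5232, 6703, 6833 and 7865 on control arrays A to E and of 14437, 14757, 12574 and 15594 on day 5 arrays B to E. Iigp1 signals were 10736, 11155, 10251, 10939 and 11386 on day 20 arrays A to E and 6525, 4261, 4447, 11981 and 8413 on day 60 arrays A to E. Iigp1, whose product loads onto parasite vacuoles, kept a narrow day 20 range wholly above control (0.75 ± 0.21 (SE, adjusted p = 0.0103)) after a day 5 change of 1.14 ± 0.22 (SE, adjusted p = 0.000534). Its second probe set changed by 0.86 ± 0.20 (SE, adjusted p = 0.00229) and 0.76 ± 0.18 (SE, adjusted p = 0.00445). Irgm1 gave signals of 1587, 1612, 2015, 2225 and 1666 on control arrays A to E and of 5627, 4695, 4669 and 4014 on day 5 arrays B to E. Irgm1 signals were 3211, 3856, 2850.1, 3794 and 2984 on day 20 arrays A to E and 1963, 977, 1740.3, 2365 and 2454 on day 60 arrays A to E. Irgm1, a regulator that keeps the other immunity-related GTPases off host membranes, was above control on every day 5 and day 20 array (1.34 ± 0.20 (SE, adjusted p = 4.80e-05) and 0.84 ± 0.19 (SE, adjusted p = 0.00229)). Ifi47 gave signals of 1358, 1942, 1753, 2704 and 2169 on control arrays A to E and of 5295, 5491, 3980.1 and 4523 on day 5 arrays B to E. Ifi47 signals were 4534, 4914, 3440.0, 3734 and 3015 on day 20 arrays A to E and 2952, 1782, 1634, 2380.4 and 3887 on day 60 arrays A to E. Ifi47 showed the same separation, with 1.26 ± 0.23 (SE, adjusted p = 0.000274) on day 5 and 0.96 ± 0.21 (SE, adjusted p = 0.00209) on day 20. Igtp gave signals of 2438, 1812, 2258, 2227 and 2728 on control arrays A to E and of 2998, 3128, 4001 and 4178 on day 5 arrays B to E. Igtp signals were 2799, 3711, 2979, 2220.3 and 3061 on day 20 arrays A to E and 3253, 1963, 1768, 2878 and 2883 on day 60 arrays A to E. Igtp, the regulator Irgm3, rose on day 5 by 0.62 ± 0.18 (SE, adjusted p = 0.0136) with no overlap, and on day 20 array D lay inside the control range while the other 4 were above it, for a change of 0.35 ± 0.17 (SE, adjusted p = 0.139) that was not called.

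**Figure D4:**
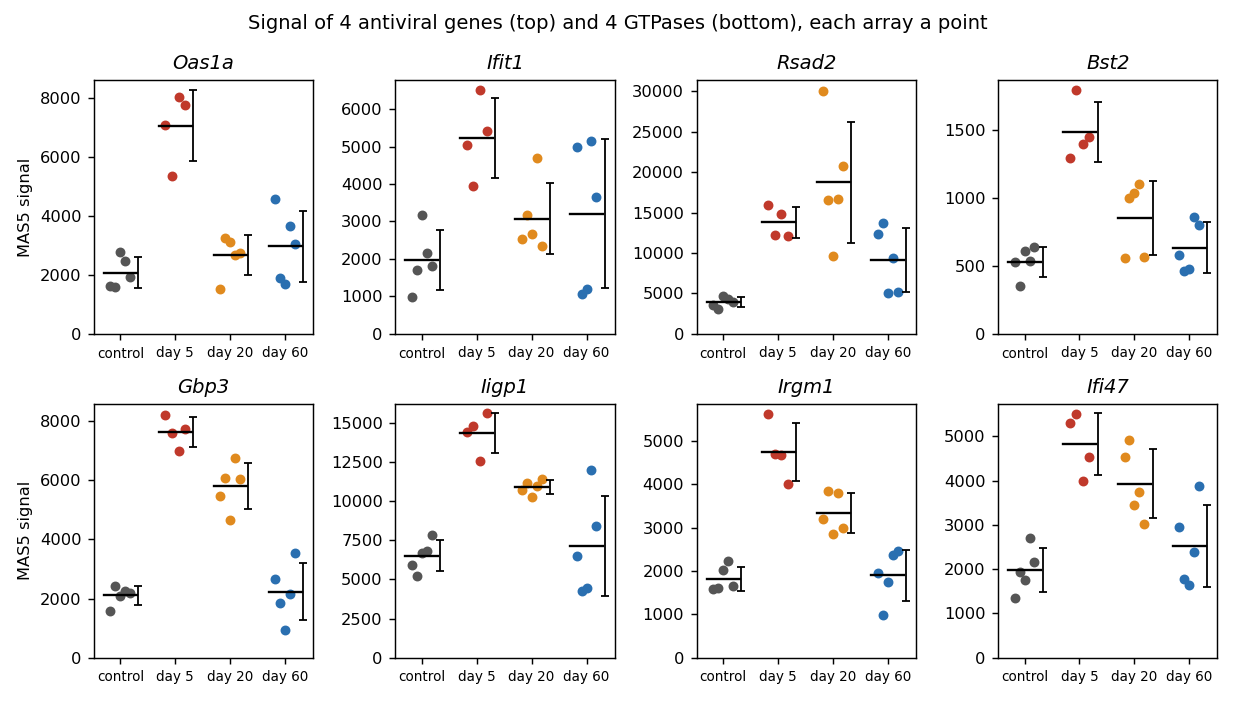
MAS5 signal of 4 antiviral genes (top row) and 4 GTPases (bottom row), each point an array, with the group mean (line) and SD (bar); the axes start at 0 and differ between genes. Day 5 lies wholly above control in all 8 genes, and on day 20 Oas1a, Ifit1 and Bst2 overlap control while Rsad2, Gbp3, Iigp1, Irgm1 and Ifi47 do not.

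Averaged over its genes, the level of each class on each array was taken as the mean of log2(signal + 100). For the 20 antiviral genes it was 10.17, 10.04, 10.72, 10.56 and 10.42 on control arrays A to E, 11.34, 11.11, 11.55 and 11.38 on day 5 B to E and 10.57, 10.84, 10.60, 10.95 and 10.70 on day 20 A to E. Day 5 was above control throughout, and on day 20 arrays A, C and E were inside the control range. For the 6 GTPases it was 11.29, 11.29, 11.47, 11.55 and 11.57 on the control arrays, 12.70, 12.66, 12.39 and 12.62 on day 5 and 12.25, 12.44, 12.11, 12.29 and 12.19 on day 20. The GTPase level was above all control arrays on every day 5 and day 20 array. No test compared the classes, and these levels are a description.

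**Figure D5:**
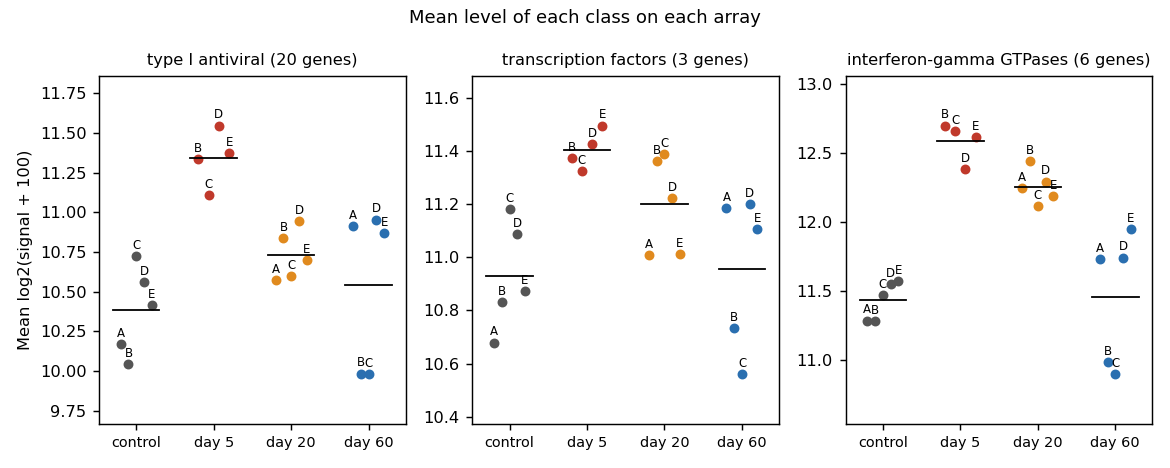
Mean log2(signal + 100) over the genes of each class on each array, with the array letter and the group mean (line). The vertical axes do not start at 0 and differ between panels; day 60 arrays B and C are the lowest of their group in all 3 classes.

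Between day 5 and day 20 few single members changed past the threshold. Oas1a fell by 1.40 on the log2 scale (SE 0.27, adjusted p = 0.0044) and Bst2 by 0.78 (SE 0.22, adjusted p = 0.0466), 2 of 29 members against 2.25% of all genes called lower. For 14 members all day 20 arrays were below all day 5 arrays (5.93% of all genes), among them Ifit2, Ifit3, Oasl1, Oasl2, Mx1, Usp18, Trim30a, Parp14, Irf7, Gbp3, Iigp1 and Irgm1. The median change was -0.65 over the antiviral genes and -0.35 over the GTPases. The Bst2 call was lost without control A, C, D or E, any day 5 array, day 20 A or E, or day 60 A (adjusted p from 0.0139 to 0.148), and Irf7 at 0.0503, Mx1 at 0.0574, Parp14 at 0.0587 and Oasl1 at 0.0638 sat just outside the threshold. A fit of only these days called 12 members lower. The share of all genes called in that fit was not computed, so this count has no background beside it.

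Between day 20 and day 60, 8 members fell and none rose, against 11.2% of all genes lower; 5 of them were GTPases. Gbp3 fell by 1.45 (SE 0.23, adjusted p = 0.000153), Gbp2 by 0.88 (SE 0.24, adjusted p = 0.0133), Irgm1 by 0.83 (SE 0.19, adjusted p = 0.00341), Iigp1 by 0.71 (SE 0.21, adjusted p = 0.017) and Ifi47 by 0.66 (SE 0.21, adjusted p = 0.0307). The others were Rsad2 at -1.06 ± 0.28 (SE, adjusted p = 0.0104), Ifih1 at -0.77 ± 0.20 (SE, adjusted p = 0.00979) and Irf9 at -0.54 ± 0.18 (SE, adjusted p = 0.0368). All day 60 arrays were below all day 20 arrays for Gbp2, Gbp3 and Irgm1, 3 of 29 members against 8.26% of all genes. Without day 60 C the count was 5, with 3 GTPases: that fit lost Iigp1, Ifi47 and Irf9, Ifi47 was also lost without day 20 A or B or day 60 B or D, and Irf9 without day 20 B, C or D or day 60 B. Without the day 60 arrays A, B and D, whose Actb ratio was above 10, 4 members were called lower, 3 of them GTPases.

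Against day 5, day 60 was lower for 15 of 29 members (8 antiviral genes, 2 transcription factors and 5 GTPases) and higher for none, with 12.2% of all genes lower. The changes of Gbp3 (-1.85 ± 0.24 (SE, adjusted p = 2.28e-05)), Irgm1 (-1.33 ± 0.20 (SE, adjusted p = 9.16e-05)), Oas1a (-1.30 ± 0.27 (SE, adjusted p = 0.0015)), Ifih1 (-1.23 ± 0.21 (SE, adjusted p = 0.000363)) and Bst2 (-1.14 ± 0.22 (SE, adjusted p = 0.000941)) were among them. In 10 members every day 60 array was below every day 5 array, where 10.3% of all genes were so. Calls lost on leaving out 1 array were those of Ifit2 (any day 5 array, day 60 B or C), Trim30a (control D or E, any day 5 array, day 20 D, day 60 B or C), Parp14 (day 5 D or E, day 60 B or C) and Ifi35 (day 5 B, D or E, day 60 C or E).

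The day 60 arrays spread widely. The class level of the antiviral genes was 10.91, 9.98, 9.98, 10.95 and 10.87 and that of the GTPases 11.73, 10.99, 10.90, 11.74 and 11.95 on arrays A to E. Array B held the lowest day 60 signal of 13 members and array C that of 14 of the 29. The SD of the antiviral level was 0.51 on day 60 against 0.28 in control, 0.18 on day 5 and 0.16 on day 20. Oasl2 ranged from 266 to 1713 and Ifit1 from 1055 to 5155 on day 60; the upper end of each was above every control array, and the lower end of Oasl2 was below every control array. The Actb ratio was above 10 on arrays A, B and D, and its part in this spread was not tested.

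Among genes that act before these targets, 2 of 6 interferon ligands on the array reached the mean signal of 300, Ifnb1 (384 ± 123 (SD, n = 5) in control) and Ifna1 (809 ± 185 (SD, n = 5)). Ifnb1 changed by -0.13 ± 0.19 (SE, adjusted p = 0.641) on day 5 and Ifna1 by -0.22 ± 0.20 (SE, adjusted p = 0.43), neither called, and the other 4 ligands on the array, Ifng among them (133 ± 62 (SD, n = 5) in control and 104 ± 45.9 (SD, n = 4) on day 5), were below the tested minimum. Of 6 receptor chains 4 rose on day 5, Ifnar1 by 1.15 ± 0.15 (SE, adjusted p = 9.07e-06), Ifnar2 by 1.93 ± 0.29 (SE, adjusted p = 4.92e-05), Ifngr1 by 0.48 ± 0.13 (SE, adjusted p = 0.0061) and Il10rb by 1.38 ± 0.21 (SE, adjusted p = 4.83e-05), while Ifngr2 changed by -0.03 ± 0.10 (SE, adjusted p = 0.836). On day 20 Ifnar1, Ifnar2 and Il10rb were still higher and Ifnlr1, the lambda receptor chain, was lower (-1.24 ± 0.31 (SE, adjusted p = 0.00484)). Of the 7 kinases and regulators with a probe set, Jak1 (0.63 ± 0.17 (SE, adjusted p = 0.00864)) and Irf8 (1.44 ± 0.24 (SE, adjusted p = 0.000119)) rose on day 5, whereas Tyk2 (0.19 ± 0.17 (SE, adjusted p = 0.398)) and the feedback inhibitor Socs1 (-0.42 ± 0.26 (SE, adjusted p = 0.225)) were not called. Rigi had no matching probe set of 1 symbol and is not analysed here.

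Upstream sensors and adaptors rose in 7 of 12 tested genes on day 5 and fell in 1, with 3 higher and 1 lower on day 20. Among the 12, Ikbke had a control mean of only 151, under the minimum signal of 300. It entered the test chiefly because of its higher day 5 signals (mean 517). Sting1, the adaptor of cytosolic DNA sensing, rose by 1.61 ± 0.26 (SE, adjusted p = 0.000121) and Cgas, its sensor, by 0.72 ± 0.15 (SE, adjusted p = 0.000835), while Mavs, the adaptor of RNA sensing, fell by 0.69 (SE 0.22, adjusted p = 0.0212). Of 23 other interferon-induced effectors 14 rose on day 5 and 8 on day 20, none fell, and Herc6 (1.82 ± 0.22 (SE, adjusted p = 4.89e-06)) and Nmi (1.01 ± 0.14 (SE, adjusted p = 2.02e-05)) had the smallest p on day 5. Of 3 further GTPases on the array Gbp7 rose on day 5 (1.49 ± 0.21 (SE, adjusted p = 2.85e-05)), and Irgm2 changed by 0.44 ± 0.23 (SE, adjusted p = 0.146) and Gbp6 by -0.09 ± 0.30 (SE, adjusted p = 0.838). Over these lists together 28 of 53 tested genes rose and 1 fell on day 5, 17 rose and 2 fell on day 20, and none was called by limma on day 60. Of all genes tested, 16.8% were called higher and 17.5% lower on day 5. On day 20 these shares were 15.6% and 14.5%, and on day 60 1.13% were called in either direction.

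Markers of other cells moved on the same days, and in bulk tissue fewer cells of a type and less RNA per cell cannot be told apart. For the counts of markers called, the shares over all genes tested were 16.8% higher and 17.5% lower on day 5. On day 20 they were 15.6% higher and 14.5% lower. Macrophage markers rose in 14 of 17 tested genes on day 5 (1 fell) and in 8 on day 20 (2 fell). Their summed signal over 18 genes ranged from 70101 to 152215 in control, 290882 to 411594 on day 5, 128644 to 294773 on day 20 and 64006 to 298511 on day 60, and only Itgam averaged under 300, on all days but day 5. Endothelial markers rose in 9 of 10 genes on day 5 and 10 of 10 on day 20, with sums of 13788 to 20810 in control, 57737 to 66801 on day 5, 45375 to 71723 on day 20 and 15605 to 28196 on day 60. Tie1 averaged under 300 in control and on day 60, and so entered the test through day 5 and day 20. Icam2 averaged under 300 on day 60. Of 5 plasmacytoid dendritic cell markers 1 rose and 1 fell on day 5, and 1 rose and 0 fell on day 20. The sums of these 5 markers overlapped control (3472 to 7218 in control, 3719 to 4901 on day 5, 4122 to 4969 on day 20 and 2877 to 5134 on day 60). Of 7 conventional dendritic cell markers on the array 5 were tested, and Zbtb46 and Itgax rose on both day 5 and day 20. On day 5 the other 3 tested markers were not called, with changes below 0 down to -0.64. The median over the 5 was -0.25. On day 20 the other 3 were not called either, and the lowest change was -0.45. The sums of the 7 markers were 3543 to 5789 in control and 5973 to 7231 on day 5. These sums were 7054 to 10364 on day 20 and 4488 to 7255 on day 60. The day 5 and day 20 sums thus lay wholly above control, while Ccr7 averaged under 300 in every group and Flt3 in each but day 20. Of 4 tested neutrophil markers S100a8, S100a9 and Csf3r rose on day 20; on day 5 limma called 0, and 0 had an unadjusted p under 0.05. The sums of 6 neutrophil markers overlapped between groups (3030.0 to 11313 in control, 3824 to 15748 on day 5, 5127 to 22646 on day 20 and 5762 to 11927 on day 60). Of 2 tested B cell markers Jchain fell on day 5. Of 10 T and NK cell markers on the array 3 were tested. On day 5, 0 were called higher and 1 lower, with a median change of -0.32, and on day 20 the calls numbered 0. Cd3d, Cd3e, Cd3g, Cd4 and Cd8b1 averaged under 300 in every group, and Nkg7 and Gzmb in control but not on day 5. The sums of the 10 markers were 2793 to 3220 in control, 2772 to 3632 on day 5, 2829 to 3669 on day 20 and 2396 to 3385 on day 60. The part of any of these cells in the change of the interferon-stimulated genes was not tested.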

How the data were processed

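Flank tissue RNA was hybridised to Affymetrix Mouse Genome 430 2.0 arrays. The deposited values are probe set intensities that the authors computed with MAS5 (GCOS 1.3) and scaled to a target of 1500, per the labels and the series' design text; no detection calls were used here. Control probe sets were dropped, and probe sets of exactly 1 symbol (34958) were kept, with 1 per gene by highest mean over the 19 assigned arrays. Genes with a mean signal of at least 300 were tested with limma 3.58.1 in R 4.3.3 on log2(signal + 100), with 1 mean per group, a trend in eBayes, two-sided contrasts and Benjamini-Hochberg adjustment over 13594 genes. The single-symbol rule leaves Isg15 out, the pseudocount shrinks dim genes, and the number of arrays limits precision. Members, role lists, pathway lists and markers were chosen with earlier results of these data known. Signals of every array are given for the GTPases, the transcription factors, the 2 members of each other role with the smallest p on day 5 and members called on later days. The script was tested on simulated data. Alternatives covered the pseudocount, the minimum signal, normalization, eBayes settings, the groups fitted, probe set choice, the title letter as a block, the unassigned array, the Actb ratio and each array left out; 1 more, without 3 day 60 arrays, was chosen after seeing the data. Same-letter arrays of different groups had deviations correlated at -0.27 to 0.35 (median 0.02), over 0.1 in 11 of 27 pairs. For arrays of other letters the range was -0.45 to 0.40 (median -0.03), over 0.1 in 32 of 108 pairs. These overlapping ranges cannot settle whether letters pair arrays, and the main fit used no pairing.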

Additional observations from a re-analysis of the deposited data

Results flagged for a closer look

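Among 116 sets of values (29 members in 4 groups), 5 held an array far from the rest of its group by Dixon's test, where chance flags about 1 in 20, or 5.8. Oas1a on day 20 array A was 1540 (1539.7), with 2675 to 3248 on the other arrays. Oas3 on control array C was 526, with 130.4 to 208 on the others. Oasl1 on control array B was 537, with 1136 to 1307 on the others, and Dhx58 on the same array was 362, with 551 to 646. Ifih1 on day 60 array E was 4614, with 2328 to 2838 on the others.

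The array that is titled day 5 A and has a source name of control entered no comparison. Its signal was above all 5 control arrays for 21 of the 29 members, among them 14 antiviral genes and 6 GTPases. It lay within the day 5 range for 18 members, below it for 10 and above it for 1, Rsad2, at 37268. The members not above the controls were Ifit3, Oas2, Oasl1, Parp14, Dhx58, Zbp1, Irf1 and Irf7. Its macrophage marker sum of 333740 lay inside the day 5 range. The Vegfa signal of this array was 11111, against 66.5 to 467 on the control arrays and 3927 to 9410 on day 5. Its endothelial marker sum was 63916, against 13788 to 20810 in control and 57737 to 66801 on day 5.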

How the results depend on the processing

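No call changed its direction under any alternative run. Of 22 calls on day 5, 15 held in all of them, as did 3 of 9 on day 20. The day 5 call of Rsad2 and the day 20 calls of Iigp1, Irf9 and Irgm1 were lost in a single setting. That setting counted the unassigned array, with its Vegfa signal of 11111, as control. The count of members lower on day 20 than on day 5 was the least stable: 2 in the main fit, 1 with a pseudocount of 1, without the minimum signal, with the mean over all probe sets, with the replicate block by title letter and with the unassigned array as control, 4 with centring on the 75th percentile, 5 with a pseudocount of 500 and without the day 60 arrays A, B and D, 6 with quantile normalization, 8 with array weights and 12 in the fit of only both groups. Of all 13594 genes, 306 were called lower on day 20 than on day 5 in the main fit. The number was 298 with quantile normalization and 292 with centring on the 75th percentile. For the other settings, the fit of only both groups among them, the share of all genes called was not computed, so those counts have no background beside them. Antiviral genes higher on day 20 numbered 4, and 2 with the replicate block or without the minimum signal. Array weights called 1 member lower on day 20 and 1 higher on day 60. Members lower on day 60 than on day 20 numbered 8, and 4 in the fit of only both groups, without the day 60 arrays A, B and D, and with the unassigned array as control; the first 2 settings left 1 antiviral gene and 3 GTPases, the last 0 antiviral genes. With the unassigned array as control, 3 members were higher on day 20 (1 antiviral gene, 2 GTPases); it ended the day 5 calls of Gbp2, Oas3, Oasl2, Rsad2 and Xaf1 and the day 20 calls of Bst2, Ifih1, Ifit2, Iigp1, Irf9 and Irgm1. The Actb ratio as a covariate ended the day 20 calls of Bst2, Ifih1 and Ifit2 and brought those of Ifi35, Igtp and Trim30a (9 in both fits); on day 5 it brought calls of Cmpk2, Ifit3 and Oas2 (25). Leaving out 1 array gave 17 to 23 members higher on day 5 (antiviral 9 to 15, GTPases 5 to 6; lowest without day 5 D, which lost Ifi35, Oas3, Oasl2, Parp14 and Xaf1), 7 to 11 higher on day 20 (antiviral 2 to 5, GTPases 4 to 5) with 0 to 1 lower, and 0 to 1 higher on day 60. It gave 1 to 5 lower from day 5 to day 20, 5 to 8 from day 20 to day 60 (antiviral 2 to 3, GTPases 3 to 5) and 11 to 20 from day 5 to day 60. The causes were not tested. Quantile normalization and centring moved the median of all genes by less than 0.1, and 28 of 29 members stayed above 0 on day 5 in both. Signals under 300 limit what could be tested, as for Mx2, Stat2 and 4 of 6 interferon ligands.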
